A study of Rattus norvegicus with 6 samples.

Results

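Expression of 10 genes of the Nrf2 antioxidant pathway was examined in the left costal hemidiaphragm of 3 streptozotocin-diabetic and 3 normal rats, with 1 array per rat. The genes were Nfe2l2, which encodes the transcription factor Nrf2, its regulators Keap1 and Mafk, and 7 target genes, Srxn1, Gclc, Gclm, Nqo1, Hmox1, Txnrd1 and Osgin1. They were taken by name from a list of pathway members, chosen with earlier results of these data known. Every probe set that the platform annotation gives to exactly 1 of them was used, which gave 13 of 15923 probe sets and 10 of 10411 named genes. Diabetic rats were male Wistar animals injected intraperitoneally at 8 weeks of age with streptozotocin, which destroys pancreatic beta cells, at 60 mg/kg in citrate buffer. Normal rats were of the same strain, sex and age and received buffer alone. Muscle was taken 4 weeks later from both groups after a night of fasting, and no animal received insulin. Streptozotocin itself and the lack of insulin that follows it cannot be told apart in this design.

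Nrf2 is held in the cytoplasm by Keap1, an adaptor that delivers it to a ubiquitin ligase for degradation. Oxidants and electrophiles modify cysteines of Keap1, after which Nrf2 enters the nucleus, pairs with a small Maf protein such as the product of Mafk and binds antioxidant response elements near its target genes. The targets supply glutathione, regenerate oxidized thiol proteins and break down quinones and heme. In skeletal muscle the pathway is known for its response to contraction and to oxidative load. Each value below is a probe set signal, a linear array intensity, and because probe sets differ in binding, differences between genes within an array are compared between groups and do not rank the genes by level. A gene was represented by its brightest probe set, and a gene passed where the adjusted p from limma was under 0.05 over all 9519 probe sets tested.

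Of the 10 genes, 5 were higher in diabetic diaphragm and none was lower. Those that rose were Nfe2l2, Mafk, Srxn1, Gclm and Txnrd1, with Srxn1 up 3.53-fold. Among all 7080 named genes tested, 3.46% were called higher and 3.55% lower. Every diabetic array lay above every normal array for 9 of the 10 genes, the exception being Nqo1, against 15.9% of named genes. The median log2 fold change of the 10 genes was 1.06, beside 0.01 over all named genes tested. Of the 13 probe sets, 12 lay above the signal filter and 6 of these rose, where the share over all probe sets was 3.30%. Mafk, Gclm and Osgin1 (as Okl38) had been picked out by the study on these same arrays, so their direction here is not independent evidence. Because the 10 genes were chosen with earlier results of these data known, the shares above describe them and are not a test of the set.

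**Figure D1:**
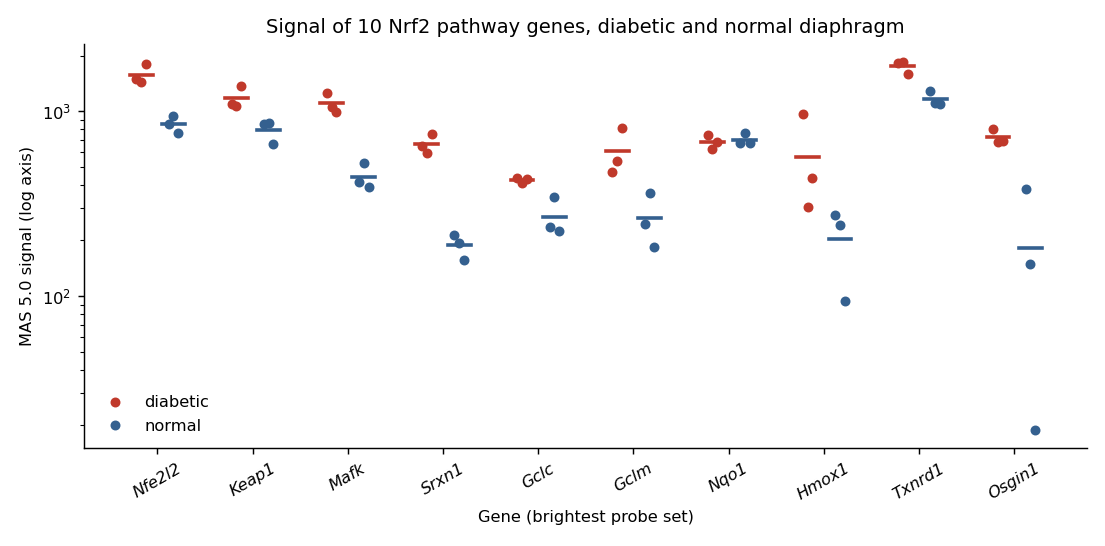
MAS 5.0 signal on a log axis for the brightest probe set of each of the 10 genes, with 1 point per rat and a bar at the mean of 3 rats, diabetic left and normal right. The diabetic points lie above the normal points for every gene except Nqo1, and the normal points of Osgin1 spread the most, from 18.9 to 380.3.

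The arrays were similar in overall level, with median signals of 167.1 to 180.5. Spiked bacterial transcripts stood apart on diabetic replicate 3, where their median relative level was 1.96, against 0.833 to 0.889 on the other 5 arrays. The β-actin 3′/5′ ratio was 1.17 to 1.71 on diabetic arrays and 1.38 to 2.27 on normal arrays. The GAPDH 3′/5′ ratio, another sign of RNA quality, was 2.91, 1.49 and 4.0 on diabetic arrays and 2.71, 4.02 and 1.27 on normal arrays. The paper gives lower and narrower ranges for both ratios in this study, and the reason for the difference was not tested. Skeletal muscle markers were bright on every array, and Ckm, the muscle creatine kinase, ranged from 21787 to 38759 over diabetic arrays and from 27797 to 38490 over normal arrays. Of the 8 muscle markers, 1 fell, Mb (myoglobin), at 16248, 13490 and 16495 in diabetic muscle, against 24162, 20757 and 22985 in normal muscle (limma, adjusted p = 0.039). All 5 liver markers with a probe set lay below the signal filter. Fibroblast markers differed between groups: 4 of 6 genes fell in diabetic muscle, Col1a1, Col3a1, Lum and Fn1. The paper lists Col1a1 and Col3a1 as reduced on these same arrays. The summed signal of the 6 was 20658 to 22381 on diabetic arrays and 38249 to 42742 on normal arrays. Col3a1 changed most in this sum, with means of 4326 in diabetic and 15984 in normal muscle. Dcn and Pdgfra overlapped between groups and did not pass. The summed signal of 5 endothelial markers was 3068 to 3398 on diabetic arrays and 2717 to 2778 on normal arrays, with Kdr higher and Tie1 lower. Kdr was the largest part of this sum, at 1418, 1525 and 1801 in diabetic muscle and 828, 1096 and 1083 in normal muscle. Pecam1, Vwf and Eng overlapped between groups. Of 3 tested smooth muscle markers, Acta2 fell (limma, adjusted p = 0.049), and the summed signal of 4 was 1569 to 2057 on diabetic arrays and 2046 to 2400 on normal arrays. The part of these shifts in the results below was not tested, and in bulk muscle a change in the number of cells of a type and a change of RNA per cell cannot be told apart.

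Nfe2l2 rose in diabetic diaphragm. Its signal was 1492.8, 1440.3 and 1803.8 in diabetic muscle, against 849.3, 937.6 and 760.1 in normal muscle, a 1.86-fold difference. The lowest diabetic value thus lay well above the highest normal value, with means of 1579 ± 196 (SD, n = 3) in diabetic and 849.0 ± 88.8 (SD, n = 3) in normal muscle. On the log2 scale this was 0.89 with a standard error of 0.16 (limma, adjusted p = 0.010), and dropping any single array left Nfe2l2 past the threshold (adjusted p at most 0.042). Within each group the arrays ranked by Nfe2l2 signal as they did by the GAPDH 3′/5′ ratio, which overlapped between groups, and the part of RNA quality in these values was not tested.

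Mafk, the small Maf partner, also rose. Its signal was 1263.4, 1055.1 and 993.6 in diabetic diaphragm, against 413.5, 524.5 and 389.6 in normal diaphragm. All 3 diabetic muscles were well above all 3 normal muscles, a 2.49-fold difference. The fit gave a log2 difference of 1.32 with a standard error of 0.18 (limma, adjusted p = 0.0030). Mafk likewise passed in all 6 fits to 5 arrays, at log2 differences of 1.22 to 1.45.

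Keap1, the inhibitor of Nrf2, had a signal of 1094.9, 1067.7 and 1377.6 in diabetic muscle and of 853.7, 864.0 and 662.8 in normal muscle. The groups did not overlap but lay close together. This missed the threshold, at 0.57 on the log2 scale with a 95% confidence interval of 0.19 to 0.96 (limma, adjusted p = 0.079). Like Nfe2l2, Keap1 ranked the arrays within each group as the GAPDH 3′/5′ ratio did, and the part of RNA quality was not tested. A second probe set of Keap1 was too dim to be tested, at 49.9 ± 41.7 (SD, n = 3) in diabetic and 31.5 ± 42.4 (SD, n = 3) in normal muscle, with widely scattered values that overlap. Within each array, the log2 signal of Nfe2l2 minus that of Keap1 was 0.45, 0.43 and 0.39 in diabetic muscle, against -0.01, 0.12 and 0.20 in normal muscle. The groups were thus separate for this difference too, by 0.32 on the log2 scale (2-sided exact permutation test, p = 0.1, which is the smallest that 3 against 3 can give, and 0.15 adjusted over the 3 pairs of genes compared in this way). For Mafk minus Nfe2l2 the groups overlapped, with means of -0.52 ± 0.32 (SD, n = 3) in diabetic and -0.95 ± 0.10 (SD, n = 3) in normal muscle (2-sided exact permutation test, p = 0.2, adjusted p = 0.2).

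The stretches of 250 bases upstream of the annotated start were read from RefSeq (rat build GRCr8), which held a promoter for 9 of the 10 genes and 2 promoters for Txnrd1. The core of the antioxidant response element was searched as TGACNNNGC on both strands, and the related AP-1 type motif as TGACTCA, in windows that also take in the first 50 bases of the transcript. The core was present in 4 of the 10 windows, those of Nfe2l2, Mafk, Gclm and the second promoter of Txnrd1, and in 12.1% of all 33469 windows of this length. TGACTCA was present only in the Srxn1 window among these, at 2 places, and in 4.63% of all windows. The 4 upstream sequences shown belong to genes that rose and hold a match, with the match in capitals. In all 4 the match lies on the opposite strand, so the capitals spell its reverse complement.
Srxn1 promoter, chr3:161064562-161064811, plus strand: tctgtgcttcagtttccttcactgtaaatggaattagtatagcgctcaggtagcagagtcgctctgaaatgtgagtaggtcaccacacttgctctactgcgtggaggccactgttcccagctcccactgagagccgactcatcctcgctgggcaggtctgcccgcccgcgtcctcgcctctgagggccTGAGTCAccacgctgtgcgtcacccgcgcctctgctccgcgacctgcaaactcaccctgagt
Gclm promoter, chr2:213031885-213032134, plus strand: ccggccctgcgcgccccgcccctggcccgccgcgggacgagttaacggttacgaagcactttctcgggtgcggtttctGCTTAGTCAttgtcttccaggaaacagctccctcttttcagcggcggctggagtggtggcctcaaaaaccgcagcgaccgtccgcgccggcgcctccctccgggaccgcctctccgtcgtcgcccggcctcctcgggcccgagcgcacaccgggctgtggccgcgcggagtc
Mafk promoter, chr12:19959193-19959442, minus strand: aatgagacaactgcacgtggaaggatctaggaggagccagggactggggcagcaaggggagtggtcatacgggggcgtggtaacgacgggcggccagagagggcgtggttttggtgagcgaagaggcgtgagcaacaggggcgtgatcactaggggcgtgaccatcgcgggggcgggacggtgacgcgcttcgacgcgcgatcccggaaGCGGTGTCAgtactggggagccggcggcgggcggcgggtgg
Txnrd1 second promoter, chr7:22755905-22756154, minus strand: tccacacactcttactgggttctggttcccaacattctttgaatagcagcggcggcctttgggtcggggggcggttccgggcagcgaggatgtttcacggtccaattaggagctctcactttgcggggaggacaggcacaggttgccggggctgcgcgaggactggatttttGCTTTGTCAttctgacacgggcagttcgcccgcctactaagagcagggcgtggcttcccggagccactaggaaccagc

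The printed match begins 62 bases upstream of the start in Srxn1, 172 bases upstream in Gclm, 41 in Mafk and 78 in Txnrd1. The other match of Srxn1 begins 5 bases upstream and runs across the start, and the match of Nfe2l2 lies within its transcript. Keap1, Gclc, Nqo1 and Osgin1 had neither motif in these windows, and Hmox1 was the gene with no promoter to search. Sequence farther from the start was not searched, so a lack of a match here does not show that a gene has no such element. A match is a description of letters near the start and was not linked to binding by any measurement here.

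Srxn1 encodes sulfiredoxin, which repairs overoxidized peroxiredoxins, and its promoter is the first sequence printed above. It had the smallest p-value of the 10 genes and ranked 15 among all 9519 probe sets tested. Its signal was 648.9, 592.2 and 755.1 in diabetic diaphragm, against 214.0, 193.7 and 157.1 in normal diaphragm. The lowest diabetic value lay far above the highest normal value, with means of 665 ± 82.7 (SD, n = 3) in diabetic and 188 ± 28.8 (SD, n = 3) in normal muscle, a 3.53-fold difference. The log2 difference was 1.83 with a standard error of 0.18 (limma, adjusted p = 0.00079), and over the 6 fits to 5 arrays the adjusted p was at most 0.0051.

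Txnrd1 encodes cytosolic thioredoxin reductase, which uses NADPH to keep thioredoxin reduced. Its brighter probe set had a signal of 1824.2, 1840.5 and 1596.7 in diabetic muscle, against 1287.4, 1115.2 and 1094.2 in normal muscle. The dimmer one had 792.6, 1340.9 and 824.4 in diabetic muscle, against 553.0, 414.9 and 585.8 in normal muscle, a 1.90-fold difference. On both probe sets the 2 groups were separate, and diabetic replicate 2 was highest, by a wide margin only on the dimmer one. Both passed with all arrays, at log2 fold changes of 0.59 and 0.90 (adjusted p = 0.042 and 0.043 from limma). Neither passed when any 1 of the 6 arrays was left out, the highest adjusted p being 0.13 and 0.12, while the log2 fold change of the brighter one stayed within 0.55 to 0.66.

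Gclm and Gclc encode the modifier and the catalytic subunit of glutamate-cysteine ligase, the first and rate-limiting enzyme of glutathione synthesis. Gclm had a signal of 468.3, 537.5 and 814.7 in diabetic diaphragm, against 244.7, 360.8 and 184.2 in normal diaphragm, a 2.31-fold difference. The groups did not overlap, but both were spread, diabetic replicate 3 and normal replicate 2 being highest in their groups. Gclm rose by 1.22 on the log2 scale, with a standard error of 0.27 (limma, adjusted p = 0.027). Gclm did not pass without diabetic replicate 2 or 3 or normal replicate 1 or 3 (limma, adjusted p = 0.060, 0.086, 0.079 and 0.068).

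Gclc had a signal of 436.1, 410.7 and 428.5 in diabetic muscle on its brighter probe set, against 236.2, 342.4 and 225.3 in normal muscle. The diabetic values were close together and above the normal ones, of which replicate 2 was highest. With a log2 difference of 0.69 and a standard error of 0.20, Gclc missed the threshold (limma, adjusted p = 0.062), but it passed at 0.88 without normal replicate 2 (adjusted p = 0.030). The dimmer probe set of Gclc had signals of 237 ± 25.3 (SD, n = 3) in diabetic and 185 ± 27.7 (SD, n = 3) in normal muscle and missed it as well, at 0.36 on the log2 scale (limma, adjusted p = 0.31). The log2 signal of Gclm minus that of Gclc was 0.10, 0.39 and 0.93 in diabetic muscle, against 0.05, 0.08 and -0.29 in normal muscle. The difference between groups was 0.53 (2-sided exact permutation test, p = 0.1, adjusted p = 0.15), and diabetic replicate 1 was close to the normal values.

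**Figure D2:**
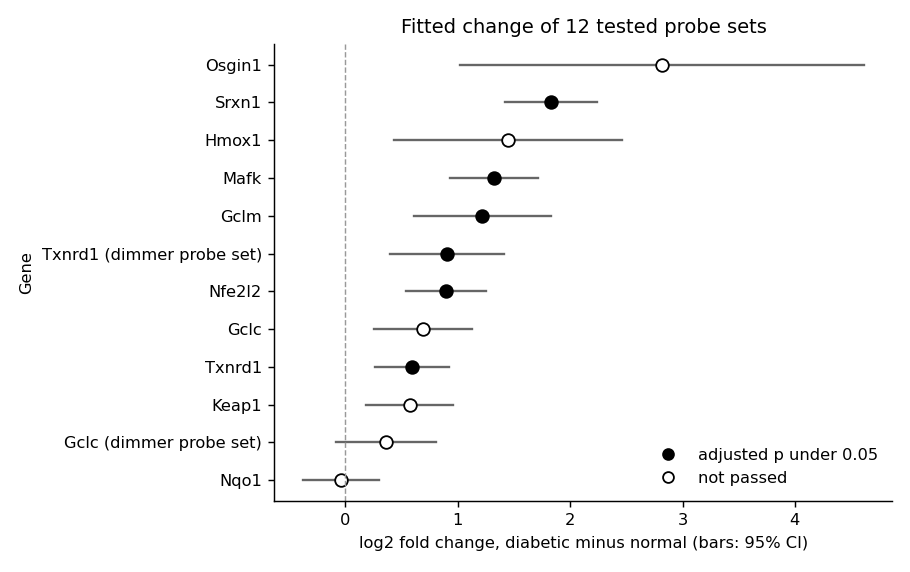
Log2 fold change, diabetic minus normal, of the 12 tested probe sets of the 10 genes, with the 95% confidence interval of the limma fit, filled where the adjusted p was under 0.05. The intervals of Osgin1 (1.02 to 4.62) and Hmox1 (0.43 to 2.46) are the widest, and that of Nqo1 (-0.38 to 0.30) spans 0.

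Nqo1 encodes a quinone reductase and is a widely used marker gene of Nrf2 activity. Its signal was 746.7, 628.5 and 678.4 in diabetic diaphragm, against 672.8, 765.2 and 672.6 in normal diaphragm. The groups overlapped, with means of 685 ± 59.3 (SD, n = 3) in diabetic and 704 ± 53.4 (SD, n = 3) in normal muscle. The log2 difference, diabetic minus normal, was -0.04 with a standard error of 0.15 (limma, adjusted p = 0.90), and its 95% confidence interval, -0.38 to 0.30, leaves room for a modest change in either direction. The standard error was close to that of Txnrd1.

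Hmox1 encodes heme oxygenase 1, which breaks down heme and is also controlled by other stress pathways. Its signal was 964.5, 301.7 and 433.7 in diabetic muscle, against 274.3, 241.1 and 94.2 in normal muscle. Diabetic replicate 1 stood far above the other 2 diabetic muscles, whose lower value was near the highest normal one. Hmox1 missed the threshold at 1.45 on the log2 scale, with a standard error of 0.46 (limma, adjusted p = 0.089), and the ratio of mean signals, 2.79, was 1.81 without diabetic replicate 1. Macrophages are another source of Hmox1 transcript. None of 5 tested macrophage markers passed, the summed signal of 6 markers was 6158, 6058 and 4950 in diabetic muscle, against 4827, 5732 and 5084 in normal muscle, and the groups overlapped. Most of this sum was Lyz2, at 4929, 4597 and 3949 in diabetic muscle and 3634, 4385 and 3795 in normal muscle. The brighter Aif1 probe set, below the filter, was at 32.2, 59.0 and 34.6 in diabetic muscle, against 88.3, 95.8 and 116.2 in normal muscle. Lgals3, which macrophages also express, was not on the marker list and is named only because its pattern lay close to that of Nfe2l2. Its 1.83-fold higher signal in diabetic muscle follows from that choice, so no test is given. The part of macrophages in the Hmox1 signal was not tested. The summed signal of 3 red blood cell markers also overlapped, at 15651 to 26823 in diabetic and 14441 to 17258 in normal muscle, and was highest in diabetic replicate 3. Nearly all of it was Hbb, at 16767, 15182 and 25962 in diabetic muscle and 16329, 13944 and 16765 in normal muscle.

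Osgin1, also named Okl38, encodes an oxidative stress induced growth inhibitor. Its signal was 799.6, 679.4 and 692.6 in diabetic diaphragm, against 380.3, 149.4 and 18.9 in normal diaphragm. The diabetic muscles were close together, whereas the normal ones ran from a clear signal down to a value below the filter level of 105.8. The log2 fold change was the largest of the 10 genes but also the least precise (2.82 with a standard error of 0.81, limma, adjusted p = 0.066). The ratio of mean signals, 3.96, was 8.60 without normal replicate 1 and 2.73 without normal replicate 3, and the gene passed in both cases (adjusted p = 0.018 and 0.023). It also passed when 16 or 64 was added to every signal before logs were taken (adjusted p = 0.048 and 0.026).

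**Figure D3:**
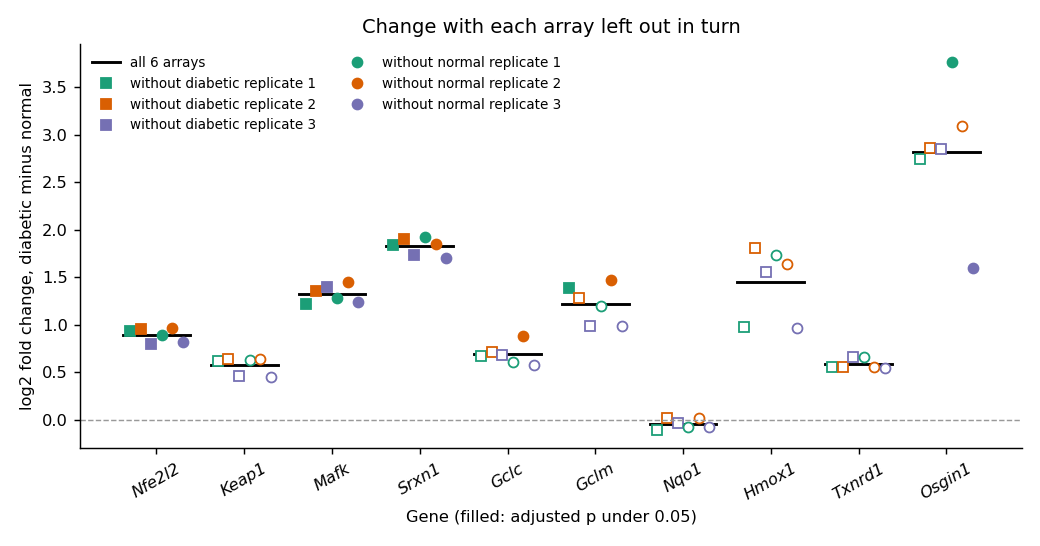
Log2 fold change, diabetic minus normal, of each gene with all 6 arrays (black line) and with 5 arrays (squares, a diabetic array left out; circles, a normal array left out), filled where the adjusted p was under 0.05. Nfe2l2, Mafk and Srxn1 passed in all 6 cases, whereas Txnrd1, Keap1, Hmox1 and Nqo1 passed in none.

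Few further genes of the pathway passed. A wider list of 47 regulators and target genes, none of them among the 10, was read from the same fit. Of these, 34 had a probe set and 26 lay above the signal filter, and 1 gene was higher, none was lower and 25 did not pass. At 3.46% of named genes higher and 3.55% lower, this count is near that of genes in general. The median log2 fold change of the 26 genes was 0.27, beside 0.01 over all named genes tested. Of the 26, 20 were above 0, beside 3597 of all 7080 named genes tested. This list too was chosen with earlier results of these data known, so its counts describe it and are not a test. Diabetic arrays lay wholly above normal arrays for 7 of the 26 and wholly below for 1, beside 15.9% and 14.9% of named genes. The filter used the mean over both groups, and Gsk3b and Gsr cleared it only through their diabetic values. Their normal means, 98.1 and 81.6, lay under the filter level of 105.8. Gsk3b is among the 7, so its place there is no support for a rise.

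The gene that rose was Ephx1, microsomal epoxide hydrolase. Its signal was 832.1, 870.7 and 896.2 in diabetic muscle, against 539.9, 467.1 and 426.8 in normal muscle. Both groups were tight and well apart, a 1.81-fold difference or 0.86 on the log2 scale with a standard error of 0.16 (limma, adjusted p = 0.011). Dropping any single array left it past the threshold (adjusted p at most 0.041).

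Among 7 further regulators, Sqstm1, which encodes the autophagy receptor p62 that binds Keap1, came nearest. Its brightest probe set had a signal of 11778, 11561 and 13459 in diabetic diaphragm, against 9832, 8347 and 7035 in normal diaphragm, groups that did not overlap. With 0.56 on the log2 scale it stayed just short of the threshold (limma, adjusted p = 0.060). A dimmer probe set passed at 2.27-fold (limma, adjusted p = 0.030) but failed in 4 of the 6 fits to 5 arrays. The study had picked out Sqstm1 on these arrays. Mafg, another small Maf, had 322 ± 45.1 (SD, n = 3) in diabetic and 229 ± 23.1 (SD, n = 3) in normal muscle and did not pass (adjusted p = 0.15). Cul3 and Rbx1, parts of the ubiquitin ligase that Keap1 serves, had log2 fold changes of 0.06 and 0.00. Btrc, another of the 7 regulators, went the other way, with every diabetic array below every normal array on its brighter probe set. It stood at -0.48 on the log2 scale and did not pass (limma, adjusted p = 0.18), and its dimmer probe set overlapped between groups.

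The 5 tested glutathione enzymes ran from -0.22 to 0.66 on the log2 scale and none passed (lowest adjusted p = 0.27). The highest was Gsr, glutathione reductase, at 136 ± 50.8 (SD, n = 3) in diabetic and 81.6 ± 8.49 (SD, n = 3) in normal muscle, with overlapping groups. Txn1, the thioredoxin that Txnrd1 reduces, differed by 0.07 on the log2 scale, with a standard error of 0.14. Among the 5 genes of NADPH supply, Pgd, 6-phosphogluconate dehydrogenase, was 1.54-fold higher with no overlap but missed the threshold (adjusted p = 0.074), and Me1, malic enzyme, stood at -0.30 on the log2 scale (limma, adjusted p = 0.31).

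**Figure D4:**
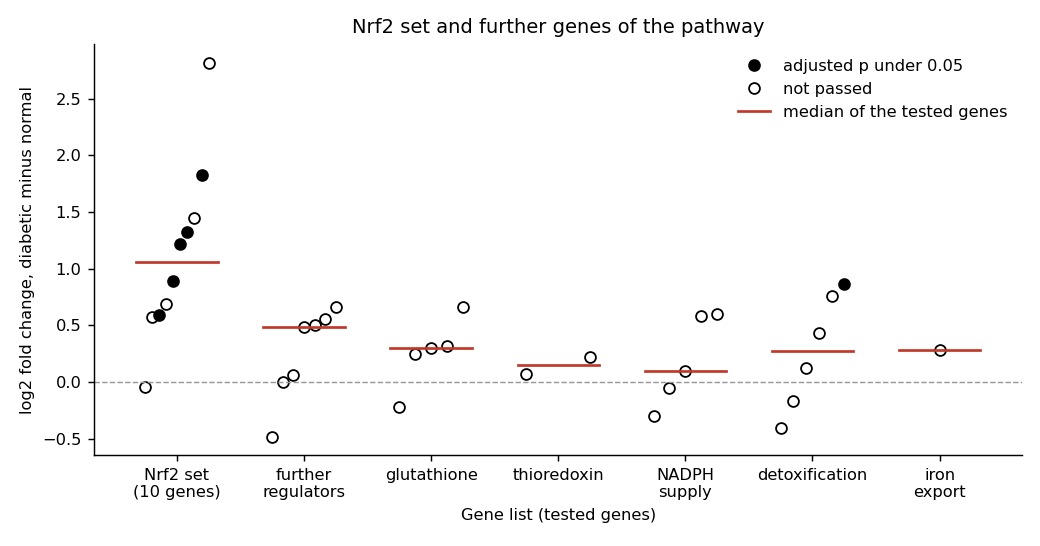
Log2 fold change, diabetic minus normal, of each tested gene (1 point per gene, brightest probe set) for the 10 genes of the Nrf2 set and for 6 lists of further pathway genes, with a line at each median, filled where the adjusted p was under 0.05. The median is 1.06 for the Nrf2 set and 0.49 or lower for the 6 further lists, in which Ephx1 is the filled point.

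The genes whose pattern over the 6 arrays lay closest to that of Nfe2l2 were sought among 7070 other named genes, by the root mean square difference of mean-centred log2 signals. They were Kctd9 (0.04), Lgals3 (0.07), Atf4 (0.09), Nob1 (0.09) and Rrs1 (0.11). Kctd9, unlike the rest of these, also ranked the arrays within each group as the GAPDH 3′/5′ ratio did. The part of RNA quality in this was not tested. Lgals3 encodes the lectin galectin-3 and Atf4 a transcription factor of the amino acid and endoplasmic reticulum stress response. Atf4 had a signal of 8315, 8570 and 10349 in diabetic muscle, against 4378, 5786 and 4568 in normal muscle, with diabetic replicate 3 highest and normal replicate 2 highest in their groups as for Nfe2l2. The 5 genes were 1.81-fold to 1.85-fold higher, and since they were chosen for this pattern no test is given.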

How the data were processed

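Total RNA from diaphragm was hybridized to Affymetrix RAE 230A arrays, 1 per rat, and the authors deposited the MAS 5.0 signal of each probe set, a linear intensity scaled per array. The sources used here do not give the software settings. Deposited signals were raised to a floor of 1 (136 of them) and put on a log2 scale with no further normalization. Control probe sets (57) and probe sets at or below the 40th percentile of mean signal (105.8) were left out, and 9519 were fitted with limma 3.58.1 under R 4.3.3 (lmFit and eBayes with a trend in the variance prior, Benjamini-Hochberg adjustment). Present calls and BAM were not used. The 6 arrays leave 4 residual degrees of freedom, and their number limits the precision. Folds divide the mean diabetic signal by the mean normal signal, and log2 differences are those of the fit.

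Probe sets were named by the platform annotation (12783 with 1 gene, 312 with several, 2771 with none), and those with several name no gene here. The members, the wider list and the cell type markers were chosen with earlier results of these data known. The genes named are the 10 members, genes of the wider list that passed, the 5 nearest to Nfe2l2 in pattern and cell type markers. Sqstm1, Mafg, Cul3, Rbx1, Btrc, Gsk3b, Gsr, Txn1, Pgd, Me1 and Nfe2l1 lie outside that rule and were picked once their values had been seen. The procedure was also run on simulated data, and the outcome is not reported here.

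Other settings tried were array weights, a replicate block, omission of each array, a single variance prior, offsets of 16 and 64, quantile and median scaling, no filter or a 60th percentile one, averaging a gene's probe sets, and an adjusted p under 0.1.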

Additional observations from a re-analysis of the deposited data

How the results depend on the processing

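Nfe2l2, Mafk, Srxn1 and Ephx1 were called higher under every alternative tried, with log2 fold changes of 0.79 to 0.97, 1.21 to 1.45, 1.53 to 1.92 and 0.78 to 0.96. Against 314 probe sets higher and 331 lower in the fit reported, the replicate block gave 162 higher and 170 lower, and 3 of the 10 genes were called, Gclm and Txnrd1 no longer passing (adjusted p = 0.072 and 0.085). The rats share only a number: same-numbered rats did not deviate together (correlations of 0.10, -0.20 and -0.07), and the labels give no common origin. Without the signal filter, 200 probe sets were higher and the same 3 genes passed (Gclm and Txnrd1, adjusted p = 0.058 and 0.052). At an adjusted p under 0.1, 562 probe sets were higher and 585 lower, 9 of the 10 genes were called, all but Nqo1, and 3 genes of the wider list (Sqstm1, Pgd and Ephx1). After quantile normalization 2 genes of the wider list were called, Sqstm1 and Ephx1. Txnrd1 also missed with scaling to the same median and with a single variance prior (adjusted p = 0.051 and 0.073), Gclc passed with array weights (adjusted p = 0.042), and Osgin1 passed with either offset. With each array left out in turn, 133 to 226 probe sets were higher and 179 to 235 lower, both counts lowest without diabetic replicate 3, 3 to 5 of the 10 genes were called, and 1 to 2 genes of the wider list, Nfe2l1 being the second without diabetic replicate 3. The log2 fold change of Nqo1 then ran from -0.10 to 0.02, being 0.019 without diabetic replicate 2 and 0.022 without normal replicate 2. No gene of either list was called lower under any alternative. The median log2 fold change over all probe sets was -0.01 after quantile normalization and 0.01 after median scaling, and the signs of the 10 genes and Ephx1 held under both. Other genes named were not rerun one by one under the scalings, and a value as near 0 as that of Rbx1 has no settled sign. Osgin1 had the widest standard error of the 10 genes, 0.81.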
